A study of Mus musculus with 26 samples.

Results

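The effect of DZNep on the retina of rd10 mice was set against the effect of UNC1999, gene by gene, to find the transcripts on which the 2 inhibitors aimed at EZH2 differ apart from the changes they share. The value compared was the log2 change from saline-injected controls to DZNep-injected mice, less the log2 change from the controls of the UNC1999 experiment to UNC1999-injected mice, taken as 1 contrast in 1 fit. It used 12 of the 26 libraries of the series: 4 controls and 2 DZNep retinas of library series G-981, and 3 controls and 3 UNC1999 retinas of library series H-50. All were whole retinas of rd10 mice (B6.CXB1-Pde6brd10/Jrd10 in the first label), collected at postnatal day 24 after intraperitoneal injections from day 9, and polyadenylated RNA was sequenced. The labels give saline as the treatment of both sets of controls, mice of both sexes were used, and the drugs differed in dose, schedule and vehicle. From one library to the next the labels count upward in the last number of the genotype and, for its replicates, in the number of the name UNC1999, and both were read as copying slips.

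The rd10 mutation lies in Pde6b, which encodes a subunit of the rod phosphodiesterase, and the rods of these mice die in the weeks after birth. EZH2 is the catalytic subunit of Polycomb repressive complex 2, which trimethylates histone H3 at lysine 27 and holds genes silent. UNC1999 binds EZH2 and its relative EZH1 directly. DZNep (3-deazaneplanocin A) blocks S-adenosylhomocysteine hydrolase, encoded by Ahcy, and the product that then builds up inhibits many methyltransferases, EZH2 among them. The design therefore compares a direct with an indirect inhibitor, but drug and library series cannot be told apart except through the controls of each.

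Of 16799 genes tested, 1 gene (0.00595%) passed an adjusted p of 0.05 with a log2 difference past 1: Egr1, on which the effect of DZNep was lower. No gene passed with a higher effect of DZNep (0%), and the smallest adjusted p in that direction was 0.1101 (edgeR quasi-likelihood test, Benjamini-Hochberg adjustment over all genes tested). At an unadjusted p under 0.05, 1271 genes were higher (7.57%) and 1128 lower (6.71%), together 14.3% of the genes. The median difference over all genes was 0.02, and the median half-width of its 95% interval was 0.33. For 12297 genes (73.2%) the whole interval lay between -1 and 1. Other tools called more genes: the likelihood ratio test of edgeR 27 higher and 30 lower, DESeq2 17 and 24, and limma voom with quality weights 33 and 55. These 3 tools shared 28 calls, 9 higher and 19 lower, and Egr1, Nr4a3, Npas4, Calcrl, Pltp and Gm8666 were among them. Without UNC1999 control replicate 3, the quasi-likelihood test called 83 genes higher and 80 lower, and without UNC1999 replicate 1 it called 3 and 5.

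The 2 drugs changed many genes alike. Each was fitted against controls of its own, with no library in common: 913 genes (5.43%) passed an adjusted p of 0.05 under both drugs in the same direction, and 9 (0.0536%) in opposite directions. DZNep alone passed on 1772 genes (10.5%) and UNC1999 alone on 1376 (8.19%), but passing under 1 drug and not the other is no test of a difference. With the log2 threshold as well, DZNep had 168 genes higher (1%) and 93 lower (0.554%), and UNC1999 170 higher (1.01%) and 310 lower (1.85%).

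**Figure D1:**
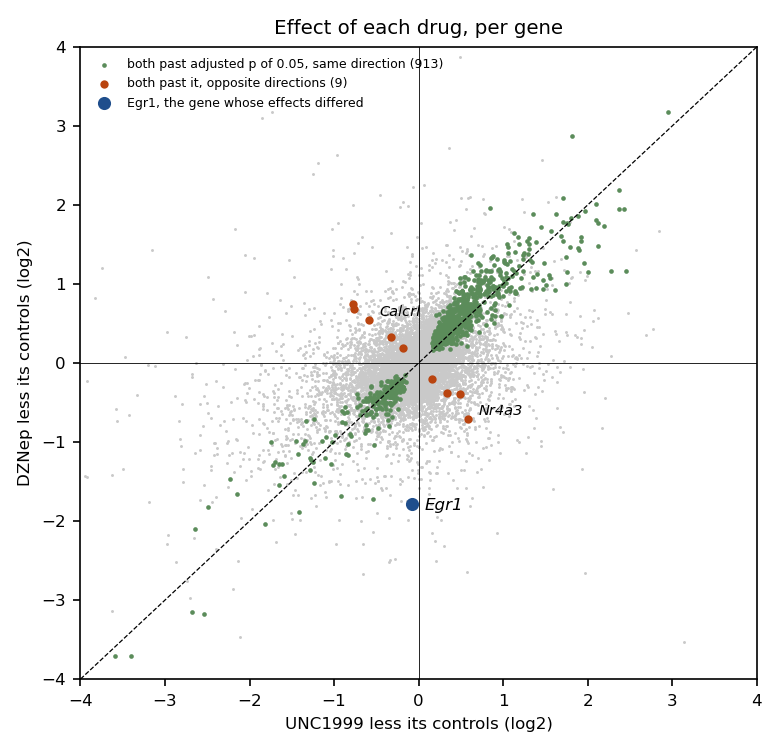
Log2 change under UNC1999 (horizontal) and under DZNep (vertical), each less its own controls, for each gene tested, with 28 genes beyond the axes. Of the genes that passed an adjusted p of 0.05 under both drugs, 913 (green) moved in the same direction and 9 (red) in opposite directions, and Egr1 (blue) lies far below the dashed line of equal effects.

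Most rod genes rose under both drugs. Of 36 rod genes tested, 33 rose under DZNep (10% of all genes) and 31 under UNC1999 (6.91%) at an adjusted p of 0.05, with median log2 changes of 1.03 and 0.81. The median difference was 0.20, with 3 genes at an unadjusted p under 0.05 (8.33%, against 14.3% of all genes). Pde6b, which encodes a catalytic subunit of the rod phosphodiesterase and is the gene mutated in rd10 mice, stood at 899, 662, 757 and 542 CPM (counts scaled to a library of fixed size) in the controls of DZNep and at 1853 and 1703 under DZNep. It stood at 767, 587 and 1161 CPM in the controls of UNC1999 and at 2257, 1618 and 2054 under UNC1999. Both drugs lay above all their controls. The log2 difference of effects was 0.08 (95% interval -0.64 to 0.79), an interval that includes 0 and leaves room for a difference of either sign. Without UNC1999 control replicate 3, which had the most Pde6b of the controls, the median of the list was -0.04. Impg2 and Impg1, which encode proteoglycans of the matrix around photoreceptors, and the phosphatase gene Ptp4a3 gave differences of 0.61, 0.49 and 0.40 (adjusted p = 0.295, 0.339 and 0.297). In these bulk samples, more cells of a type and more RNA per cell cannot be told apart.

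Egr1 is an immediate-early gene: a zinc finger transcription factor that cells switch on within minutes of activity, growth factors or injury, without new protein synthesis. It lies at chr18:35020861-35024638 on the plus strand of NCBIM37 (ENSMUSG00000038418). Its level was 151, 143, 141 and 194 CPM in the controls of DZNep and 46.3 and 45.4 under DZNep (157 ± 24.7 against 45.8 ± 0.659, SD, n = 4 and 2). In the UNC1999 experiment it was 145, 144 and 121 CPM in controls and 120, 126 and 144 under the drug (137 ± 13.6 against 130 ± 12.2, SD, n = 3 and 3). Both DZNep libraries were below the other 10, whose groups overlapped. DZNep lowered it by a log2 change of -1.78 (adjusted p = 0.00011), the change under UNC1999 was -0.07 (adjusted p = 0.73), and the difference was -1.71 ± 0.175 (SE, 95% interval -2.09 to -1.33, adjusted p = 0.00605). The difference stayed between -1.80 and -1.46 under every alternative run. It was not called with 9 controls of series G-981 in place of 4 (-1.46, adjusted p = 0.117) or with a replicate block (-1.61, adjusted p = 0.319), and not without DZNep replicate 1 or 2 (adjusted p = 0.133 and 0.114), which leaves 1 DZNep library whose spread is assumed to be that of the other groups. In the other whole retinas of the series, scaled together with these 12, Egr1 ran from 94.2 to 137 CPM in 5 controls, from 144 to 157 under UNC0642 and from 191 to 323 under Romidepsin, so the DZNep libraries, at 48.3 and 47.0 on that scale, were the lowest of all 22.

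The list of 24 immediate-early genes, all tested, had a median difference of -0.17. At an unadjusted p under 0.05, 7 members were lower and 2 higher, 37.5% of the list against 14.3% of all genes. With Egr1 the lower ones were Nr4a3, an orphan nuclear receptor, the AP-1 members Fos, Fosl2 and Fosl1, the activity-dependent neuronal factor Npas4, and Egr3, a relative of Egr1. None of the genes named other than Egr1 passed the adjusted test of the difference. The controls were unequal on this list. At an adjusted p of 0.05, 14 members were higher in the controls of UNC1999 than in those of DZNep (17.5% of all genes). Another 3 were lower there (14.8%), and the median control difference was 0.54. The part of these controls in the differences was not tested. Apart from Egr1, the enzymes aimed at with Eed and Suz12, the sex-linked genes and the 6 higher genes with the smallest p, all genes named, the photoreceptor genes above included, were chosen after their values were seen.

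The members moved in different ways under the 2 drugs. Nr4a3 had 6.12, 4.92, 5.22 and 4.89 CPM in the controls of DZNep and 3.01 and 3.53 under it, and 5.30, 4.84 and 6.04 in the controls of UNC1999 and 7.00, 7.39 and 9.69 under it. The treated groups did not overlap their controls and lay on opposite sides of them: it fell under DZNep (-0.71, adjusted p = 0.019) and rose under UNC1999 (0.58, adjusted p = 0.028), a difference of -1.29 (adjusted p = 0.128). Fos stood at 45.9 to 58.1 CPM in the controls of DZNep and at 39.6 in both DZNep libraries, against 97.1, 76.1 and 75.4 in the controls of UNC1999 and 109, 102 and 128 under it. Its difference was -0.79 (adjusted p = 0.131), and it rose under UNC1999 (0.45, adjusted p = 0.024). The controls themselves differed: Fos was higher by 0.73 in the controls of UNC1999 (adjusted p = 0.00039). Npas4 went from 2.91, 2.40 and 3.05 to 6.43, 4.30 and 5.76 CPM under UNC1999 (0.98, adjusted p = 0.011) and from 3.60 to 5.19 across controls to 4.33 and 3.31 under DZNep, which overlap. Its difference was -1.16 (adjusted p = 0.147). Egr3 repeated the pattern of Egr1 at a low level, with 3.15, 2.85, 2.68 and 3.95 CPM in controls and 1.18 and 1.10 under DZNep (-1.46, adjusted p = 0.026). Its difference was -1.41 (adjusted p = 0.253), and its controls in the UNC1999 experiment ran from 1.29 to 4.11 CPM. Fosl1 had the widest difference (-2.99, 95% interval -5.38 to -0.61), on levels under 1.1 CPM throughout the DZNep experiment. In unscaled counts it had 169, 92 and 66 in the controls of UNC1999 and 118, 382 and 1080 under UNC1999. UNC1999 replicate 1 thus lay within the range of its controls. The controls of DZNep had 14, 21, 13 and 29 counts. Jund, the AP-1 member that is present without stimulation, was on the other side (0.65, adjusted p = 0.147): it fell under UNC1999 from 111, 86.9 and 77.4 to 65.4, 58.6 and 61.4 CPM (-0.57, adjusted p = 0.011) and was 101 to 120 CPM in controls and 113 and 121 under DZNep. Ier3, an early response gene, rose under DZNep from 24.4 to 34.1 across controls to 54.6 and 51.6 CPM (0.91, adjusted p = 0.0052), with a difference of 0.58 (adjusted p = 0.293). The remaining 15 members did not reach an unadjusted p of 0.05.

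**Figure D2:**
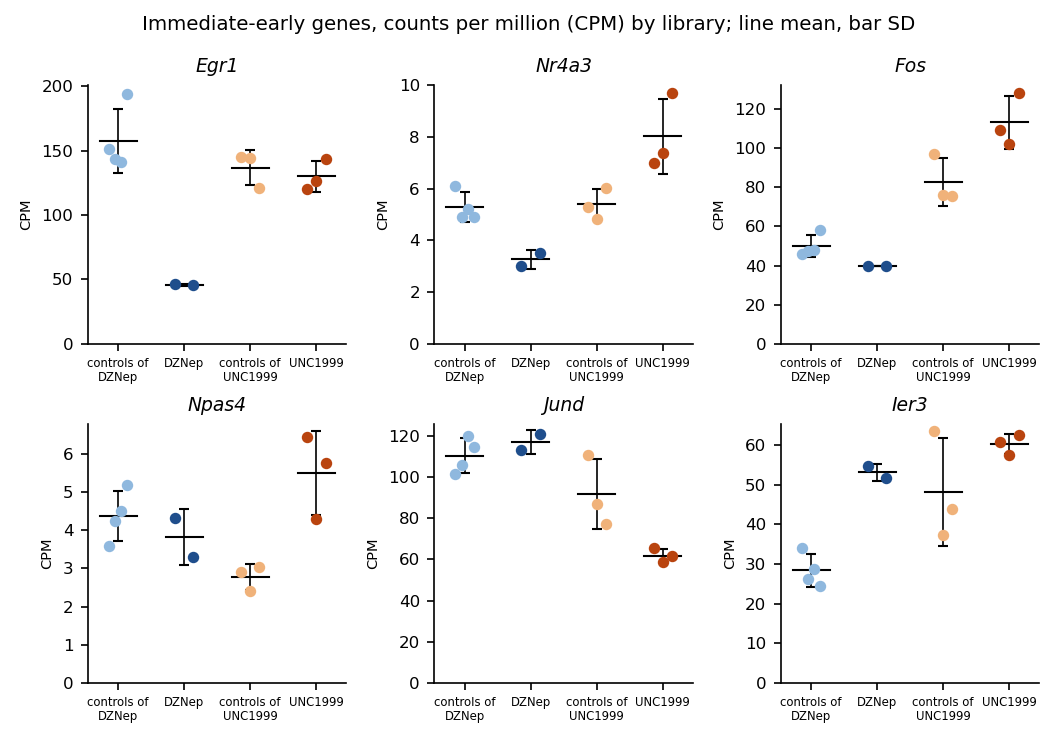
CPM of 6 immediate-early genes in each of the 12 libraries (points), with the mean (line) and SD (bar) of each group, on axes that start at 0. Egr1 is near 46 CPM in both DZNep libraries and at 120 CPM or more in the other 10. Nr4a3 is highest and Jund lowest under UNC1999. Npas4 has its highest mean there, with libraries that overlap those of the DZNep experiment.

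Many immediate-early genes are reached by the factor CREB through the cAMP response element, whose half-site reads TGACG. Promoter windows of RefSeq (GRCm38.p6, 250 bases before the start of the transcript and 50 after) were at hand for 18 of the 24 members and for 10886 of the genes tested. The half-site, read on both strands and chosen after the data were seen, was in 13 of the 18 windows (72.2%) and in 33.3% of all. The full element TGACGTCA, which contains it, was in 2 (11.1%) and in 3.48% of all, and the E-box CACGTG was in 4 (22.2%) and in 11.3%. The median GC share was 65% in the list and 60.7% over all windows. The half-site contains the pair CG, whose median count per window was 25.5 in the list and 20 over all windows. The part of this in the shares was not tested. The windows of the 3 lower members with the smallest p that had one, after Egr1, are shown in lower case with each TGACG or its complement in capitals. No window of Egr1, Egr3 or Fosl1, which are among the 7 lower members, was used here. Those shown lie at chr4:48045055-48045354 (plus strand) for Nr4a3, chr12:85473640-85473939 (plus) for Fos and chr19:4989922-4990221 (minus) for Npas4.
Nr4a3: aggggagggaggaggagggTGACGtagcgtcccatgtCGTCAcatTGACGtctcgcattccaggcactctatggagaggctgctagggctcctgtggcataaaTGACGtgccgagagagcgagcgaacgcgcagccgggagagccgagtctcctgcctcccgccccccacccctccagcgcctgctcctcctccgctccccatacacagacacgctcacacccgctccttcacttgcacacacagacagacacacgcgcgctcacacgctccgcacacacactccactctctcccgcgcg
Fos: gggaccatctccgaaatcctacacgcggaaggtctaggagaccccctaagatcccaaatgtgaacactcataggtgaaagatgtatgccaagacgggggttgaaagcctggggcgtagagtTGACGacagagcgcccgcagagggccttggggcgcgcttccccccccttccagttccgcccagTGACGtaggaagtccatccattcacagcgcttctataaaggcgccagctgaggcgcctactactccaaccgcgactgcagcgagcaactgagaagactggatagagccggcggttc
Npas4: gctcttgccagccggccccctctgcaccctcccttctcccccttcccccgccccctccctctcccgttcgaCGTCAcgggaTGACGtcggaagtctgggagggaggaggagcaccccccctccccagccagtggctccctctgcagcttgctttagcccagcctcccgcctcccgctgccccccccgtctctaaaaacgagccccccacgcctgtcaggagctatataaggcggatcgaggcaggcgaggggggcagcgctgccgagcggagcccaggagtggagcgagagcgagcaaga
Nr4a3 held 4 such half-sites, at bases -231, -213, -205 and -147 as counted to the first letter of each, and Fos and Npas4 held 2 each. A match is a string of letters and says nothing of whether a factor binds it.

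The 9 genes that passed under both drugs in opposite directions had differences with an adjusted p of 0.128 or 0.131. Calcrl, the receptor of the vessel peptide adrenomedullin, rose under DZNep from 4.72, 4.65, 4.72 and 4.02 to 6.77 and 6.40 CPM, and fell under UNC1999 from 12.2, 11.2 and 8.56 to 7.56, 7.34 and 6.35 CPM. Its difference was 1.14 ± 0.202 (SE, 95% interval 0.70 to 1.58), and its controls differed by 1.24 between the experiments (adjusted p = 3.1e-05). All 5 treated libraries thus stood between the levels of the 2 sets of controls. Nsl1, of the kinetochore, gave 1.45, Gm8666, a predicted gene, 1.52, 1500001M20Rik 0.66, and Oxct1, the enzyme that lets tissues burn ketone bodies, 0.38. Beside Nr4a3, the other direction held Arhgap27, a GTPase activator, with -0.89, the hexose transporter gene Slc2a6 with -0.72, and the tubulin deacetylase gene Hdac6 with -0.37. Slc2a6 had 11.8, 11.8, 13.4 and 11.1 CPM in controls and 9.09 and 9.49 under DZNep, and 9.93, 9.38 and 10.6 CPM in controls and 12.5, 12.9 and 12.5 under UNC1999. Arhgap27 had 15.8 CPM in DZNep control replicate 1, close to the 15.0 and 14.5 under DZNep, and 20.4 to 20.8 in the other controls. Hdac6 and Gm8666 lie on the X chromosome, and the mix of sexes differed between the groups, as given further on.

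The 6 genes with the smallest p among those with a higher effect of DZNep were Bhlhe41, Agpat5, Calcrl, Cd164, Gm17436 and Nsl1. Bhlhe41 (DEC2), a repressor of the circadian clock, had 82.7, 80.5, 81.6 and 83.8 CPM in controls and 112 and 105 under DZNep. In the UNC1999 experiment it had 81.4, 80.6 and 72.7 CPM in controls and 75.3, 71.5 and 73.8 under the drug. The DZNep libraries were above all others, and the difference was 0.49 ± 0.0737 (SE, 95% interval 0.33 to 0.65, adjusted p = 0.1101). Agpat5, an enzyme of phospholipid synthesis, and Cd164, a sialomucin of lysosomes and the cell surface, gave 0.50 (95% interval 0.30 to 0.70) and 0.40 (0.23 to 0.56). Gm17436, a predicted gene of 60 bases, gave 2.96 on levels of 0.0794 to 1.26 CPM, close to the floor of 3 counts. Among 21 clock genes tested, 4 were higher and 1 lower at an unadjusted p under 0.05 (23.8%), with a median of 0.04. Dbp fell under UNC1999 (-0.54, adjusted p = 0.0049) with a difference of 0.44 (adjusted p = 0.167), and Nr1d1 fell under DZNep (-0.25, adjusted p = 0.023) with a difference of -0.31 (adjusted p = 0.183).

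Most listed genes of the neurons of the inner retina, which are not the cells hit by the mutation, had negative differences of effects, though none passed the adjusted test. The levels themselves were not all lower: the bipolar list summed to 2536 and 2644 CPM across the DZNep libraries and to 2190 to 2357 under UNC1999. The controls were already apart, with 2912 to 3231 CPM in those of DZNep and 2341 to 2512 in those of UNC1999. All 11 ganglion cell genes tested had negative differences, with a median of -0.28, where 46.4% of all genes were negative, and for 10 of them both DZNep libraries, as deviations from their own controls, lay below all 3 UNC1999 libraries (19.6% of all genes, and 23.6% the other way). At an unadjusted p under 0.05 there were 6 (54.5%, against 14.3%). Rbpms2, an RNA-binding protein that marks ganglion cells, had -0.50 (adjusted p = 0.211), the neurofilament gene Nefh -0.44 (adjusted p = 0.236), Rbpms -0.43 (adjusted p = 0.252) and the surface protein gene Thy1 -0.37 (adjusted p = 0.254). Rbpms2 stood at 37.3, 49.9, 51.4 and 50.5 CPM in the controls of DZNep and 41.1 in both DZNep libraries, and at 36.2, 42.8 and 39.5 CPM in the controls of UNC1999 and 47.7, 50.9 and 46.8 under it. DZNep control replicate 1 was below the DZNep libraries, and without it the median of the list was -0.35. Under DZNep 3 members fell at an adjusted p of 0.05 (6.01% of all genes), and under UNC1999 none (6.77%).

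Bipolar cells carry the signal of photoreceptors to the inner retina. Of 17 bipolar cell genes tested, 7 were lower and 1 higher at an unadjusted p under 0.05 (47.1%), with a median of -0.23. At an adjusted p of 0.05, 6 members fell under DZNep (6.01% of all genes) and 4 under UNC1999 (6.77%). None rose under DZNep (10%), and 1 rose under UNC1999 (6.91%). Grm6, the glutamate receptor of ON bipolar cells, had 253, 280, 258 and 313 CPM in the controls of DZNep and fell to 176 and 198 under it (-0.56, adjusted p = 0.0071). In the UNC1999 experiment it had 157, 152 and 198 CPM in controls and 190, 173 and 186 under the drug, which overlap. Its difference was -0.68 (adjusted p = 0.135), and its controls differed by -0.71 between the experiments (adjusted p = 0.00026), so that the DZNep libraries lay within the range of the UNC1999 experiment. Pcp2, a modulator of G proteins in ON bipolar cells, rose under UNC1999 (0.44, adjusted p = 0.016) with a difference of -0.67 (adjusted p = 0.129), again over controls that differed (-0.65). The factor gene Bhlhe23, of rod bipolar cells, was the higher one (0.35, adjusted p = 0.269), and it fell under UNC1999 (-0.53, adjusted p = 0.0073).

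Of 12 amacrine and horizontal cell genes tested, 11 had negative differences (46.4% of all genes). At an unadjusted p under 0.05 there were 5, all lower (41.7%), and the median of the list was -0.30. Calb1, the calcium-binding protein of horizontal cells, had 101, 110, 107 and 114 CPM in controls and 90.9 and 85.7 under DZNep, and 92.5, 103 and 119 CPM in controls and 122, 118 and 117 under UNC1999. It fell under DZNep (-0.29, adjusted p = 0.035) with a difference of -0.47 (adjusted p = 0.148). Slc6a9, the glycine transporter, and Chat, of the cholinergic starburst cells, gave -0.43 and -0.50 (adjusted p = 0.203 and 0.21). Trim9, a ubiquitin ligase of neurons, and Ece2, a neuronal peptidase, were on no list and were among the 4 smallest p of the whole table in this direction. Trim9 had 134 to 151 CPM in the controls of DZNep, 100 and 106 under it, and 104 to 112 in the 6 libraries of the UNC1999 experiment, with a difference of -0.52 (adjusted p = 0.124). Ece2 had 52.2 to 62.5 CPM in the controls of DZNep, 38.5 and 39.3 under it, and 49.7 to 61.7 in the other experiment, with a difference of -0.68 (adjusted p = 0.128). Both fell under DZNep (adjusted p = 0.0017 and 0.0023).

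CPM was here scaled by TMM normalization and is not a plain share of all counts. The summed rod list was 27879 to 45067 CPM in the controls of DZNep and 79710 and 82415 under DZNep. It was 31186 to 55296 CPM in the controls of UNC1999 and 73080 to 97052 under UNC1999. The medians of the ganglion, bipolar and amacrine lists were -0.27, -0.23 and -0.28 under DZNep and 0.03, 0.02 and 0.01 under UNC1999. The controls differed here too: 10 of the 17 bipolar, 6 of the 12 amacrine and horizontal and 3 of the 11 ganglion cell genes were lower in the controls of UNC1999 than in those of DZNep at an adjusted p of 0.05 (14.8% of all genes), with median control differences of -0.29, -0.26 and -0.16. The part of the rod counts or of these controls in the differences was not tested.

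**Figure D3:**
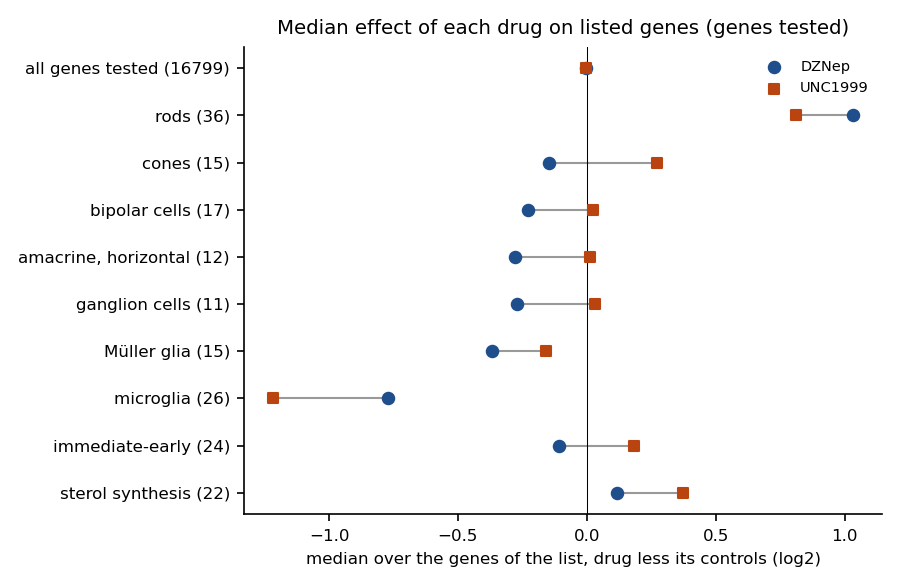
Median log2 change of the listed genes under DZNep (blue circles) and UNC1999 (red squares), each against its own controls, with the number of genes tested in brackets. Rods are to the right and microglia to the left under both drugs, while the neurons of the inner retina are left of 0 under DZNep and near 0 under UNC1999.

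Cones, the photoreceptors of daylight, lose function after the rods in this strain. Of 15 cone genes tested, 12 had negative differences (46.4% of all genes). For 12, every DZNep library was below every UNC1999 library as deviations from their own controls (19.6% of all genes). At an unadjusted p under 0.05, 3 were lower (20%), and the median of the list was -0.35. Pde6c, the catalytic subunit of the cone phosphodiesterase, had 161, 196, 176 and 221 CPM in controls and fell to 128 and 120 under DZNep (-0.61, adjusted p = 0.0063). In the UNC1999 experiment it had 151, 143 and 169 CPM in controls and 180, 178 and 210 under the drug (0.29, adjusted p = 0.091). The treated libraries lay outside the range of their controls on opposite sides, and the difference was -0.90 ± 0.159 (SE, 95% interval -1.25 to -0.55, adjusted p = 0.128). The cone arrestin gene Arr3 gave -1.40 (adjusted p = 0.218): 233, 261, 233 and 302 CPM in controls against 142 and 146 under DZNep, and 89.8, 130 and 279 CPM in controls against 221, 218 and 294 under UNC1999. Controls 1 and 2 of UNC1999 were lower than every other library, and control 3 was among the highest. The opsin genes Opn1mw and Opn1sw gave -0.67 (adjusted p = 0.345) and -0.76 (adjusted p = 0.527), with the same low controls. Without UNC1999 control replicate 3 the median of the list was -0.61 and the differences of Arr3 and Opn1mw were -1.996 and -1.06. With the 9 controls the median was -0.16. Of the 15 cone genes, 10 were lower in the controls of UNC1999 than in those of DZNep at an adjusted p of 0.05 (14.8% of all genes), by a median of -0.45.

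Müller glia span the retina and support its neurons. Sox9, a factor that maintains them, had the second smallest p of the table: 39.2, 38.9, 38.8 and 42.4 CPM in controls against 26.2 and 27.4 under DZNep, and 45.3, 39.5 and 38.4 against 45.3, 46.6 and 53.3 under UNC1999. The DZNep libraries were the lowest of the 12. It fell under DZNep (-0.57, adjusted p = 0.0023), and the difference was -0.81 ± 0.116 (SE, 95% interval -1.06 to -0.56, adjusted p = 0.105). Rlbp1, which carries retinal in these cells and in the pigment epithelium, fell under DZNep (-0.46, adjusted p = 0.048) with a difference of -0.78 (adjusted p = 0.155). Rax, a homeobox factor of retinal progenitors and glia, was higher (0.66, adjusted p = 0.147), with 136 and 141 CPM under DZNep against 77.8 to 111 in the other 10 libraries. Over the 15 genes of the list, 2 were lower and 2 higher at an unadjusted p under 0.05 (26.7%), and the median was -0.16. Falls were not particular to DZNep: at an adjusted p of 0.05, 6 members fell under DZNep (6.01% of all genes) and 6 under UNC1999 (6.77%). Under DZNep 1 member rose (10%), and under UNC1999 none (6.91%). The median changes were -0.37 and -0.16.

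**Figure D4:**
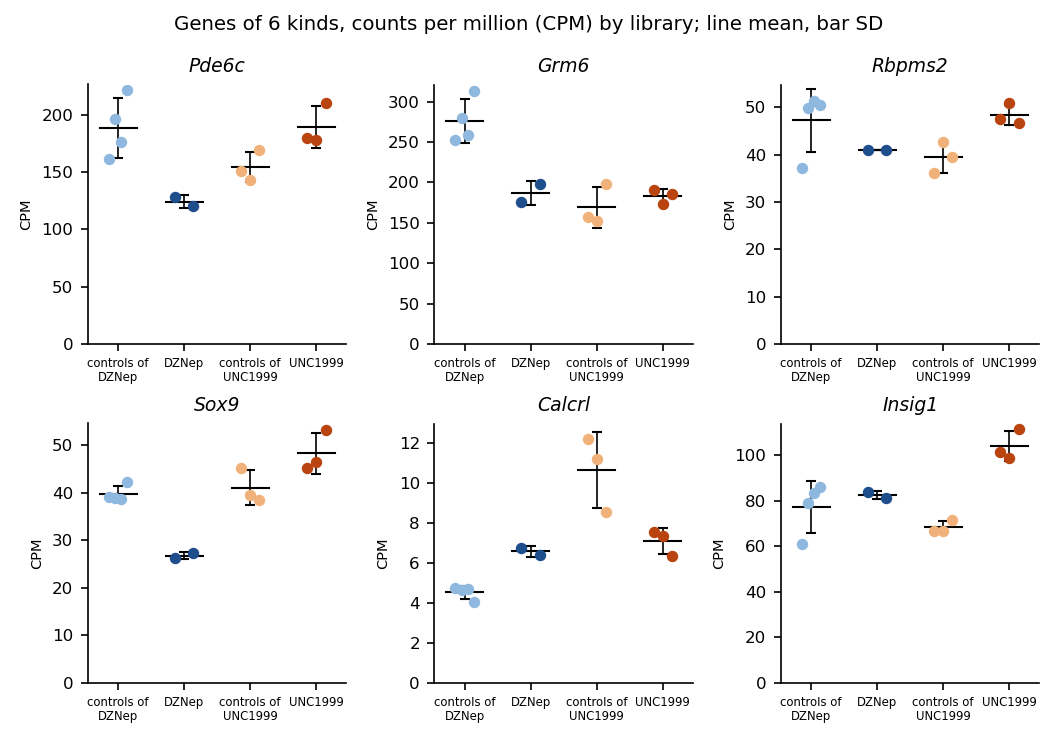
CPM of a cone gene (Pde6c), a bipolar cell gene (Grm6), a ganglion cell gene (Rbpms2), a Müller glia gene (Sox9), a receptor gene (Calcrl) and a gene of sterol regulation (Insig1) in each of the 12 libraries (points), with mean (line) and SD (bar) of each group, on axes that start at 0. Sox9 and Pde6c are lowest in both DZNep libraries, Insig1 is highest in the 3 UNC1999 libraries, and the controls of Grm6 and Calcrl differ between the experiments.

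Genes of sterol synthesis and uptake are driven together by SREBP-2 when cells lack cholesterol. Of 22 genes tested, 15 rose under UNC1999 (6.91% of all genes) and 3 under DZNep (10%) at an adjusted p of 0.05, and none fell. The median changes were 0.37 and 0.12, and the median difference was -0.19 (range over the libraries left out -0.23 to -0.14). Of the 22 differences 19 were negative (46.4% of all genes), and 7 were lower at an unadjusted p under 0.05 (31.8%). Insig1, the brake of the pathway, had 61.0, 79.2, 83.5 and 85.9 CPM in controls and 83.8 and 81.3 under DZNep. It rose under UNC1999 from 66.7, 66.7 and 71.7 to 101.6, 99.1 and 111.5 CPM (0.61, adjusted p = 0.0068), above all other libraries. Its difference was -0.51 ± 0.150 (SE, 95% interval -0.84 to -0.19, adjusted p = 0.188). The enzyme gene Lss rose under both drugs (0.25 and 0.51, adjusted p = 0.0277 and 0.003), with a difference of -0.26 (adjusted p = 0.255). Pltp, the phospholipid transfer protein of lipoproteins, rose under UNC1999 from 15.3, 15.6 and 20.4 to 43.4, 34.1 and 33.9 CPM and had 32.9 to 39.6 in controls and 38.5 and 40.5 under DZNep. Its difference was -1.01 (adjusted p = 0.128), and its controls differed by -1.11 between the experiments (adjusted p = 3.5e-05), lower in those of UNC1999. The part of these controls in the difference was not tested.

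Microglia are the phagocytes of the retina. Of 26 genes tested, 4 fell under DZNep (6.01% of all genes) and 20 under UNC1999 (6.77%) at an adjusted p of 0.05, with median changes of -0.77 and -1.22. All 26 differences were positive (53.6% of all genes), but 2 had an unadjusted p under 0.05 (7.69%), and the median was 0.44. Tmem119, a marker of resident microglia, had 8.91, 5.69, 7.76 and 5.26 CPM in controls and 4.96 and 6.10 under DZNep, and fell under UNC1999 from 8.42, 8.42 and 6.72 to 3.91, 4.02 and 2.34 CPM. Its difference was 0.88 (adjusted p = 0.277). Cx3cr1, the fractalkine receptor, gave 0.53 (95% interval -0.25 to 1.31), and Cst7, of activated microglia, 1.31 (-0.17 to 2.79). The controls spread widely: the summed level of the list ran from 402 to 840 CPM in the controls of DZNep and from 427 to 841 in those of UNC1999. With the 9 controls of series G-981 the median turned to -0.25, so the direction depends on which controls are used. MHC class I genes repeated this: 10 of 13 fell under UNC1999 (6.77% of all genes) and 3 under DZNep (6.01%) at an adjusted p of 0.05. None of their differences reached an unadjusted p of 0.05, and the median of 0.35 turned to -0.37 with the 9 controls. The interferon list had a median of -0.03 and the MHC class II list of -0.06, with no gene at an unadjusted p under 0.05 among 24 and 6.

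Gliosis genes carried the unevenness of the controls of UNC1999. Lcn2, an iron-binding protein of reactive glia, had 284, 270 and 42.8 CPM in those controls and 9.64, 30.4 and 23.7 under UNC1999, against 9.32 to 28.6 in the controls of DZNep and 17.9 and 14.9 under it. The difference of 3.18 (adjusted p = 0.179) came with controls that differed by 3.56 (adjusted p = 0.00071), it was 3.65 without UNC1999 control replicate 3, and it reversed to -0.65 with the 9 controls. Cp (ceruloplasmin) gave 1.16 on 1200, 928 and 487 CPM in the same controls, and Gpnmb, of phagocytes, 1.86 on 164, 126 and 27.7. Osmr, the oncostatin M receptor, gave -1.06 (adjusted p = 0.28), with 42.7 CPM in UNC1999 replicate 1 against 108 and 129 in the other two. Of 18 gliosis genes, 16 were higher in the controls of UNC1999 than in those of DZNep at an adjusted p of 0.05 (17.5% of all genes), and their median difference was 0.16. The cell cycle list had a median of 0.89, with 5 of 19 higher at an unadjusted p under 0.05 (26.3%). At an adjusted p of 0.05, 8 members were higher in the controls of UNC1999 than in those of DZNep (17.5% of all genes), and 1 was lower (14.8%). At the same threshold 1 member rose under DZNep (10%) and 5 fell under UNC1999 (6.77%). The part of the controls in these differences was not tested. Mcm3, a subunit of the replicative helicase, had 8.84, 9.56 and 4.21 CPM in the controls of UNC1999 and 2.48 to 5.03 in the other 9 libraries. The median of the list fell to 0.16 with the 9 controls.

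**Figure D5:**
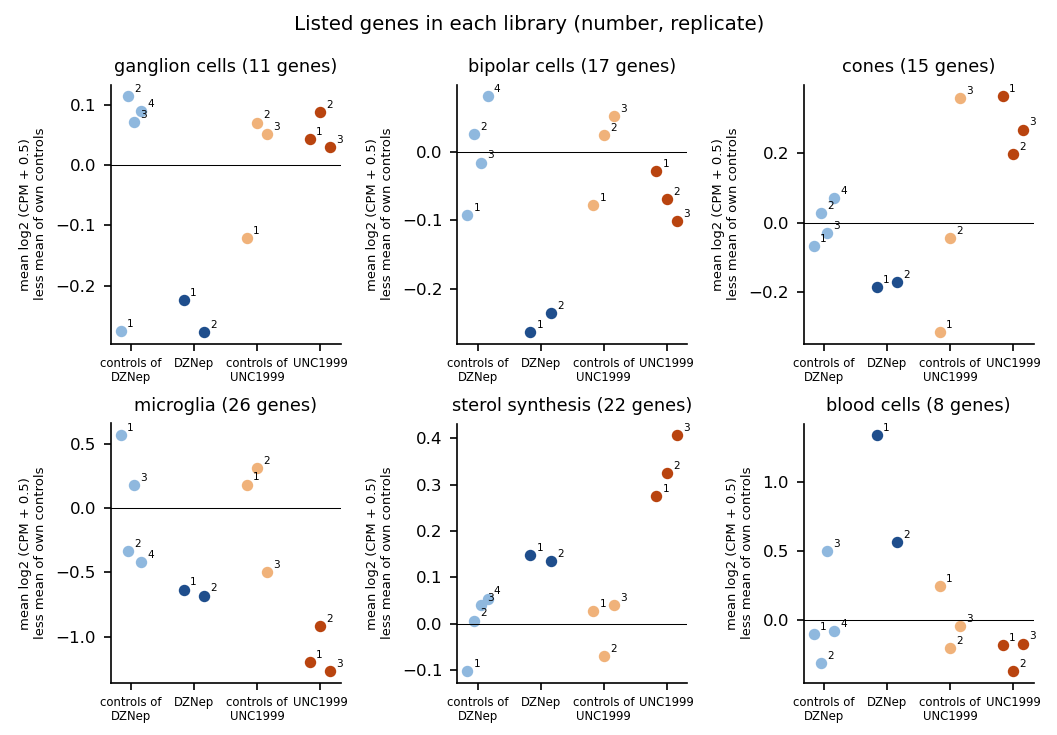
Mean log2 (CPM + 0.5) over the genes of 6 lists in each library, less the mean of the controls of its own experiment, with replicate numbers beside the points. Both DZNep libraries are low for ganglion and bipolar cells apart from DZNep control 1 in the first, the UNC1999 libraries are highest for sterol synthesis, and controls 1 and 3 of UNC1999 stand on opposite sides for cones and microglia.

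The pigment epithelium lies behind the retina, feeds the photoreceptors and recycles retinal. Of 19 pigment epithelium genes tested, 12 rose under DZNep (10% of all genes) and 15 under UNC1999 (6.91%) at an adjusted p of 0.05, 1 fell under UNC1999 (6.77%), and the median difference was -0.13, with 3 lower and 2 higher at an unadjusted p under 0.05 (26.3%). Rdh5, the retinol dehydrogenase of the visual cycle, rose under DZNep from 4.22 to 8.65 across controls to 11.4 and 15.1 CPM and under UNC1999 from 7.42 to 8.06 to between 24.9 and 27.5. Its difference was -0.75 (adjusted p = 0.262). Slc6a20a, an amino acid transporter, rose by 1.16 and 2.28 (difference -1.12, adjusted p = 0.222). Rdh10, which makes retinal from retinol, was among the 2 higher ones (0.79, adjusted p = 0.184). The summed pigment epithelium list was 429 to 583 CPM in controls and 816 and 1018 under DZNep, and 656 to 714 in controls and 1162 to 1342 under UNC1999. Of 16 melanin synthesis genes, 10 had negative (46.4% of all genes) and 6 positive differences, from -1.35 to 1.47 with a median of -0.30. At an unadjusted p under 0.05, 3 were lower and 1 higher (25%). Oca2 and Gpr143, of melanosomes, were among the lower ones (-0.85 and -1.35, adjusted p = 0.34 and 0.283). Without DZNep replicate 1 the median of the melanin list turned to 0.14, and without replicate 2 it was -1.08. How much of this tissue stayed on each retina was not measured, and its part in the result was not tested.

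Summed over their lists, transcripts of blood were highest in DZNep replicate 1 and those of lens in replicate 2. Of 8 blood cell genes tested, 7 were higher at an unadjusted p under 0.05 (87.5%, against 7.57% of all genes), with a median difference of 1.40. The remaining gene had a difference of -0.02. At an adjusted p of 0.05, 4 of the 8 were higher in the controls of UNC1999 than in those of DZNep (17.5% of all genes) and none lower (14.8%). The median control difference was 1.42. The summed level was 35.3 to 106 CPM in the controls of DZNep, 146 and 67.2 under it, and 93.2 to 129 in the UNC1999 experiment. Hbb-b1, of adult haemoglobin, had 24.8, 20.4, 47.2 and 26.2 CPM in controls and 86.9 and 40.7 under DZNep, and 51.2 to 66.4 in the other experiment, and gave 1.25 (adjusted p = 0.224). Slc4a1, the anion exchanger of red cells, gave 3.59 (adjusted p = 0.128) on levels under 1.7 CPM. The lens list had 7 genes tested and a median of 1.35, which came from DZNep replicate 2: Cryaa stood at 36.5 CPM there and at 0.0376 to 1.01 in the other 11 libraries, Crybb2 at 13.8 against 0 to 0.726, and without that library the median was -0.84. The lens list summed to 5.39 and 70.5 CPM in DZNep replicates 1 and 2, against 4.33 to 8.55 in the other 10 libraries. The melanin list summed to 96.1 and 260 CPM in the same order, so it was high in the library that was high for lens. The part of blood or lens in other differences was not tested.

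The transcripts of the enzymes aimed at, Ahcy, Ezh2 and Ezh1, had differences whose intervals included 0. Ahcy, the target of DZNep, had 24.2, 23.9, 22.4 and 25.3 CPM in controls and 24.5 and 23.8 under DZNep, and 39.5, 38.67 and 40.6 in controls and 43.7, 39.7 and 42.1 under UNC1999. Its difference was -0.07 (95% interval -0.26 to 0.13), while its controls differed by 0.73 between the experiments (adjusted p = 3.2e-06). Ezh2 had 11.5 to 14.2 CPM in the controls of DZNep, 15.6 and 13.6 under it, 12.4 to 13.2 in the controls of UNC1999 and 10.8, 13.2 and 14.6 under it, and gave 0.19 (-0.17 to 0.55). Ezh1, its relative in cells that no longer divide, rose under both drugs (0.32 and 0.25, adjusted p = 0.0094 and 0.03) and gave 0.08 (-0.13 to 0.28). Suz12, the scaffold of the complex, rose under DZNep (0.37, adjusted p = 0.0046) and gave 0.18 (-0.02 to 0.38). Eed, the subunit that reads the mark, gave 0.37 (0.09 to 0.65, adjusted p = 0.247), and the demethylase gene Kdm6b -0.24 (adjusted p = 0.249). Over the 14 genes of the complex and its demethylases the median was 0.09, with 14.3% at an unadjusted p under 0.05, as over all genes. Transcript levels say nothing of enzyme activity or of the histone mark, which were not measured here.

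Among 19 genes of the methionine cycle, 1 was higher and 1 lower at an unadjusted p under 0.05 (10.5%), with a median of 0.06. Gnmt, which uses up S-adenosylmethionine, gave -1.25 (adjusted p = 0.151): 1.32 to 1.54 CPM in controls and 1.15 and 0.956 under DZNep, and 0.988, 0.702 and 0.725 CPM in controls and 1.32, 1.34 and 1.59 under UNC1999, where it rose (0.83, adjusted p = 0.027). Of the classic targets of Polycomb, none of 38 Hox genes had enough counts to be tested. Of 56 other developmental regulators 21 were tested, 2 of them higher at an unadjusted p under 0.05 (9.52%), with a median of 0.15.

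Facts of the libraries bear on all these values. Counted reads ran from 14115428 to 36354094 per library, with the extremes in the 2 DZNep libraries. The controls of the 2 experiments differed on 5438 genes at an adjusted p of 0.05 (32.4%), and the same controls enter every difference of effects. By Xist and the Y-linked genes Ddx3y, Uty, Kdm5d and Eif2s3y, both DZNep libraries and 3 of their 4 controls were of the female pattern (Xist 718 to 1062 CPM), and DZNep control replicate 3 of the male. UNC1999 control replicate 1 was female (648 CPM), and the other 2 controls and all 3 UNC1999 libraries were male (Xist 0.0462 to 0.222 CPM). Sex and drug thus overlap in part, and with the Xist pattern as a covariate Egr1 was again the gene called (-1.80, adjusted p = 0.00838). The labels do not say whether replicates were single animals, so the p-values measure the spread between these libraries.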

How the data were processed

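Whole-retina libraries of the DZNep experiment (4 controls, 2 treated) and the UNC1999 experiment (3 and 3) were used, grouped by the sample titles. The authors trimmed reads with BBDuk, mapped them to NCBIM37 (mm9) with HISAT2 2.2.1 and counted them with HTSeq 0.11.2; the strand setting is not given in the sources used here, so overlapping and near-identical genes are uncertain. The table deposited by the authors holds counts that are not normalized for 37991 Ensembl genes, and names and positions came from GENCODE M1 for 37205 of them. The remaining 14 libraries of the table entered only alternatives.

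The 12 libraries were fitted together in edgeR 4.0.16 (R 4.3.3): filterByExpr over the 4 groups, TMM normalization, and the quasi-likelihood F test on each contrast, in place of the study's likelihood ratio test, which was an alternative beside DESeq2 1.42.0 and voom in limma 3.58.1. Adjustment over 16799 genes followed Benjamini and Hochberg. Calls needed an adjusted p under 0.05 and a log2 difference past 1. CPM values are scaled by TMM. A floor of 3 counts is 0.0861 to 0.221 CPM, and intervals of shares or floors cover counting error only. In 13 pairs of replicates the chi-square per gene was at least 3.72, so none were copies. With 200 simulated changed genes in this contrast, 91% of the changes of 1 and 100% of those of 2 (log2) passed the adjusted p. That was among 16624 genes, and 8 unchanged genes passed too. The changed genes were drawn only from those above a set mean CPM, and all other genes were given no drug effect. The shares therefore do not say how many of the real differences were found.

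The genes named are those called, the 6 of smallest p in a direction without calls, Ahcy, Ezh1, Ezh2, Eed, Suz12 and the sex-linked genes; others are said to be chosen after their values were seen. The comparison, its members and the 37 gene lists were chosen with earlier results of these data known, and no p is adjusted over a list. Some genes of the lists are counted in them but not reported here by name.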

Additional observations from a re-analysis of the deposited data

Results flagged for a closer look

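Of 78 named genes, 10 had 1 library of the 4 controls of DZNep far from the other 3, measured as its gap to the nearest library over the range of the group; chance gives about 1 in 20. The 4 Y-linked genes each gave 1, because DZNep control replicate 3 had Eif2s3y, Ddx3y, Kdm5d and Uty at 27.6, 46.5, 23.6 and 22.01 CPM and the other 3 controls had 0 counts. DZNep control replicate 1 stood apart on 4 genes: high on Gpnmb (0.875, 66.4 CPM against 27.5 or less), and low on Thy1 (0.964, 306 against 386 or more), Rbpms2 (0.891, 37.3 against 49.9 or more) and Arhgap27 (0.918, 15.8 against 20.4 or more). Without it, the median difference of the ganglion cell list, which holds Thy1 and Rbpms2, was -0.35 in place of -0.28. DZNep control replicate 4 was high on Sox9 (0.871, 42.4 CPM against 39.2 or less) and low on Calcrl (0.900, 4.02 against 4.65 or more), on the side away from the DZNep libraries in both.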

How the results depend on the processing

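Leaving out UNC1999 control replicate 3 had the strongest effect: 83 genes were called higher and 80 lower in place of 0 and 1. All 163 had the same sign as in the full fit, and 151 of them an unadjusted p under 0.05 there. The 2 fits share all other libraries, so this agreement is no independent support for the 163 calls. Without 1 library the counts ranged from 0 to 83 higher and from 0 to 80 lower, with 3 and 5 without UNC1999 replicate 1, 2 lower without UNC1999 replicate 3, and 0 lower, Egr1 included, without either DZNep library, which leaves a lone sample assumed to vary like the other groups. The likelihood ratio test called 27 and 30 genes, 68 and 102 with no fold threshold, DESeq2 17 and 24, and voom 33 and 55. With no filter on low counts 3 genes were lower, and with the 9 controls of series G-981 none was (786 higher and 773 lower at an unadjusted p under 0.05). RLE normalization, at least 10 counts in every library, all 22 retinas and the Xist pattern as a covariate (chosen after seeing the data, as was the likelihood ratio test with no fold threshold) each called Egr1 and no other gene.

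Replicate numbers are shared between treated and control libraries. The correlations of same-numbered deviations ran from -0.28 to 0.242 over 5 pairs, with 1 above 0.1. So few pairs cannot show whether libraries with the same number were paired, and the main fit did not pair them. With a replicate block 0 genes were called higher and 0 lower (680 and 691 at an unadjusted p under 0.05), Egr1 had -1.61 (adjusted p = 0.319), and the drug counts were 32 higher and 10 lower for DZNep and 112 and 128 for UNC1999; Pde6b reversed to -0.0781. Not every library correlated best with its own number.

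The counts for DZNep were 1685 higher and 1009 lower with no fold threshold, and from 100 to 239 and from 12 to 118 without 1 library. Those for UNC1999 were 1160 and 1138 with no fold threshold, 307 higher with voom, and from 40 to 339 and from 29 to 560 without 1 library, lowest without control replicate 2 and highest without control replicate 3. The controls of the 2 experiments differed on 2948 and 2490 genes with no fold threshold, and on 220 to 534 higher ones without 1 library.

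With the 9 controls, differences reversed for Lcn2 (-0.65) and Cx3cr1 (-0.0680). With the Xist covariate they reversed for Xist (-0.29), Ddx3y (0.0737), Kdm5d (0.0665) and Uty (0.15), and with voom for Pde6b (-0.12). Without 1 library, Crybb2 ran from -1.64 to 5.05 and Cryaa from -1.47 to 5.12, both lowest without DZNep replicate 2, and Pde6b from -0.24 to 0.27, lowest without UNC1999 control replicate 3 and highest without control replicate 2. The causes of these changes were not tested.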
